A study of Sus scrofa with 22 samples.

Results

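The genes described here are 9 protein genes of the pig mitochondrial genome (ND1, ND2, ND4, ND5, COX1, COX2, COX3, ATP6 and CYTB) and TFAM, the nuclear gene for the protein that packages mitochondrial DNA and starts its transcription. These 10 genes were chosen by name, out of 29214 pig genes counted, and were followed as a share of each cell's pig counts and as CPM, counts scaled to a total of 1000000 pig counts, in every group of cells. The study sequenced polyadenylated RNA of single cells from pig embryos of embryonic day 0 (E0) to E14, in 20 libraries labelled P1 to P20, and of pgEpiSC, stem cells that the labels trace to the epiblast of E10, in 2 libraries labelled low and high. The labels name no genotype, treatment or strain, do not say what low and high stand for, and do not say whether the 2 pgEpiSC libraries are separate lines. The authors placed 1458 embryonic cells in 37 groups, and the 93 pgEpiSC_low and 96 pgEpiSC_high cells form the remaining groups. The groups run, under the authors' own spelling, from Oocyte, Zygote, 2C, 4C, 8C and Morula_E4 to ICM, Epiblast, Hypoblast, TE, Ectoderm, Mesdoderm, Endoderm and Defi_Endoderm of single days. Tested were pgEpiSC against Epiblast_E10, 15 steps between a stage or day and an earlier one, each named with its result, and 6 pairs of lineages within libraries. Oocyte, Zygote, TE_E9, Endoderm_E11 and TE_E12 to TE_E14 entered no such step and no lineage pair, and are described by their values only. Some groups, among them preICM_E5, Epiblast_E9 and Ectoderm_E12, entered no step but belong to the lineage pairs. In 12 of the 15 steps no library held cells of both groups, so there stage and library cannot be told apart. ICM stands for inner cell mass and TE for trophectoderm.

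Mitochondrial DNA encodes a few core subunits of the respiratory chain, which the organelle transcribes as long polycistronic precursors and cuts into separate messenger RNAs. All other subunits of the same complexes are encoded in the nucleus, so a working chain needs both genomes. An embryo starts with the mitochondria of the egg, and in the mouse replication of their DNA is known to pause during cleavage. TFAM binds the promoters of mitochondrial DNA, where the polymerase POLRMT and the factor TFB2M join it, and it also coats the DNA along its length.

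ND1, ND2, ND4 and ND5 are subunits of complex I (NADH dehydrogenase), CYTB is the cytochrome b of complex III, COX1, COX2 and COX3 form the catalytic core of complex IV (cytochrome c oxidase), and ATP6 is a proton channel subunit of ATP synthase. In the RefSeq annotation of Sscrofa11.1, along the mitochondrial sequence, ND1 (ENSSSCG00000018065) lies at 3922 to 4876, ND2 (ENSSSCG00000018069) at 5087 to 6128 and COX1 (ENSSSCG00000018075) at 6511 to 8055. COX2 (ENSSSCG00000018078) lies at 8203 to 8890, ATP6 (ENSSSCG00000018081) at 9120 to 9800 and COX3 (ENSSSCG00000018082) at 9800 to 10583. ND4 (ENSSSCG00000018087) lies at 11359 to 12736, ND5 (ENSSSCG00000018091) at 12935 to 14755 and CYTB (ENSSSCG00000018094) at 15342 to 16481. TFAM (ENSSSCG00000040185) lies on chromosome 14 at 92261713 to 92279731. The other 4 protein genes of the genome, ND3, ND4L, ND6 and ATP8, served as context. ATP8 overlaps ATP6 by 43 bases, ND4L overlaps ND4 by 7, ATP6 overlaps COX3 by 1, and ND5 overlaps ND6 of the opposite strand by 17. The sources used here do not say whether counting used strand, so these neighbours, and any nuclear copies of mitochondrial sequence, make the gene-level counts uncertain.

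Library totals ran from 7415760 to 39405309 counts, the median cell held 274531 counts, and 1.80% of all counts were spiked-in synthetic RNAs (ERCC, after the External RNA Controls Consortium). All libraries used the same 96 cell barcodes, which mark wells, so a shared barcode is no shared cell. Most group names matched their markers. Summed core epiblast markers (POU5F1, SOX2, NANOG) reached 530.6 to 724.0 CPM in the epiblast groups. Hypoblast markers (GATA4, GATA6, SOX17, PDGFRA) summed to 409.1 to 1009 CPM in the hypoblast groups. They summed to 9.942 to 90.82 CPM in the epiblast groups and 82.72 to 136.1 CPM in TE_E7 to TE_E10. The same list had 688.6 CPM in preICM_E5 and 177.2 to 398.7 CPM in the endoderm groups. All 4 were at 10 CPM or more in every hypoblast group, and also in Epiblast_E8, Epiblast_E9, TE_E9 and TE_E10 among others. Trophectoderm markers (CDX2, GATA2, GATA3, KRT8, KRT18) summed to 4832 to 6108 CPM in TE_E7 to TE_E10 against 651.2 to 1374 CPM in the hypoblast groups. The pgEpiSC libraries held 573.5 (high) and 671.5 CPM (low) of the epiblast markers. Weak matches were Ectoderm_E14, with 69.53 CPM of the epiblast list, Defi_Endoderm_E14, with 32.61 CPM of FOXA2 and SOX17, and the late trophectoderm. TE_E14 had 2084 CPM of trophectoderm markers, against 2847 CPM in Mesdoderm_E14 and 2103 CPM in Defi_Endoderm_E14. Defi_Endoderm_E13 had 3943 CPM of them, above TE_E12 (3315 CPM) and TE_E13 (3922 CPM). FOXA2 and SOX17 did not single out endoderm, with 271.7 CPM in Hypoblast_E9 and 245.5 CPM in Hypoblast_E10. The endoderm groups had 32.61 to 242.5 CPM. The mesoderm markers (TBXT, MESP1, HAND1, PDGFRA) summed to 414.4 CPM in TE_E12, 625.5 CPM in TE_E13 and 638.2 CPM in TE_E14, against 589 to 697.9 CPM in the Mesdoderm groups. A share of counts cannot tell more mitochondrial RNA from less nuclear RNA in a cell, so counts per spike-in count are given beside it. The labels do not say which cells shared an embryo, so the p-values below measure the spread between libraries only.

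The 9 mitochondrial genes were abundant everywhere: each had a count in all 1647 cells, and together they took 9019331 counts, or 1.754% of all pig counts. TFAM had a count in 1627 cells and 214.4 CPM over all cells. Among the 13 mitochondrial protein genes, ATP6 took 14.75% of the counts, COX1 14%, ND4 11.59% and COX3 11.3%, while COX2 took 7.986%, CYTB 7.668%, ND1 4.898%, ND5 4.743% and ND2 3.348%. Per kilobase of gene the order of the levels was different: ATP6 had 4731 CPM per kb, COX3 3147, COX2 2536, COX1 1979, ND4 1837, CYTB 1469, ND1 1120, ND2 701.8 and ND5 569 CPM per kb. ATP6 was the highest of the 9 on both scales, and ND5 and ND2 were the lowest per length.

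The mitochondrial share of a group, pooled over its cells, was lowest in 2C at 0.8546% and reached 3.933% in TE_E7 and 7.969% in TE_E9, a group of 2 cells with 7.121% and 8.69%. Among groups of at least 5 cells the highest share was 4.6 times the lowest. In order of development the pooled shares were 1.422% in Oocyte, 3.2% in Zygote, 0.8546% in 2C, 1.393% in 4C, 2.111% in 8C, 2.363% in Morula_E4, 2.106% in preICM_E5 and 2.753% in ICM_E6. In the epiblast they were 2.93% at E7, 2.176% at E8, 1.454% at E9 and 1.438% at E10, and in the ectoderm that follows it 1.89% at E11, 1.678% at E12, 1.214% at E13 and 1.261% at E14. Hypoblast cells had 2.231% at E7 and 1.519% to 1.541% at E8 to E10. Trophectoderm groups had 2.127% in preTE_E5, 2.331% in TE_E6, 2.557% in TE_E8, 2.618% in TE_E10, 3.169% in TE_E12, 3.455% in TE_E13 and 1.606% in TE_E14. The pgEpiSC had 1.487% (low) and 1.285% (high).

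Libraries of one group could differ widely or hardly at all. The ICM_E6 cells had 2.345% in P14 and 3.781% in P15, and TE_E7 cells had 3.12% in P8 and 7.964% in P9, whereas 8C cells had 2.101% in P19 and 2.115% in P20. When the 23 groups with at least 2 library sums were put in order of their mean share, the ranges of neighbouring groups overlapped in 20 of 22 pairs. Neighbours in such an order are the closest groups by construction, and most have 2 sums, so this overlap does not test whether groups differ.

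**Figure D1:**
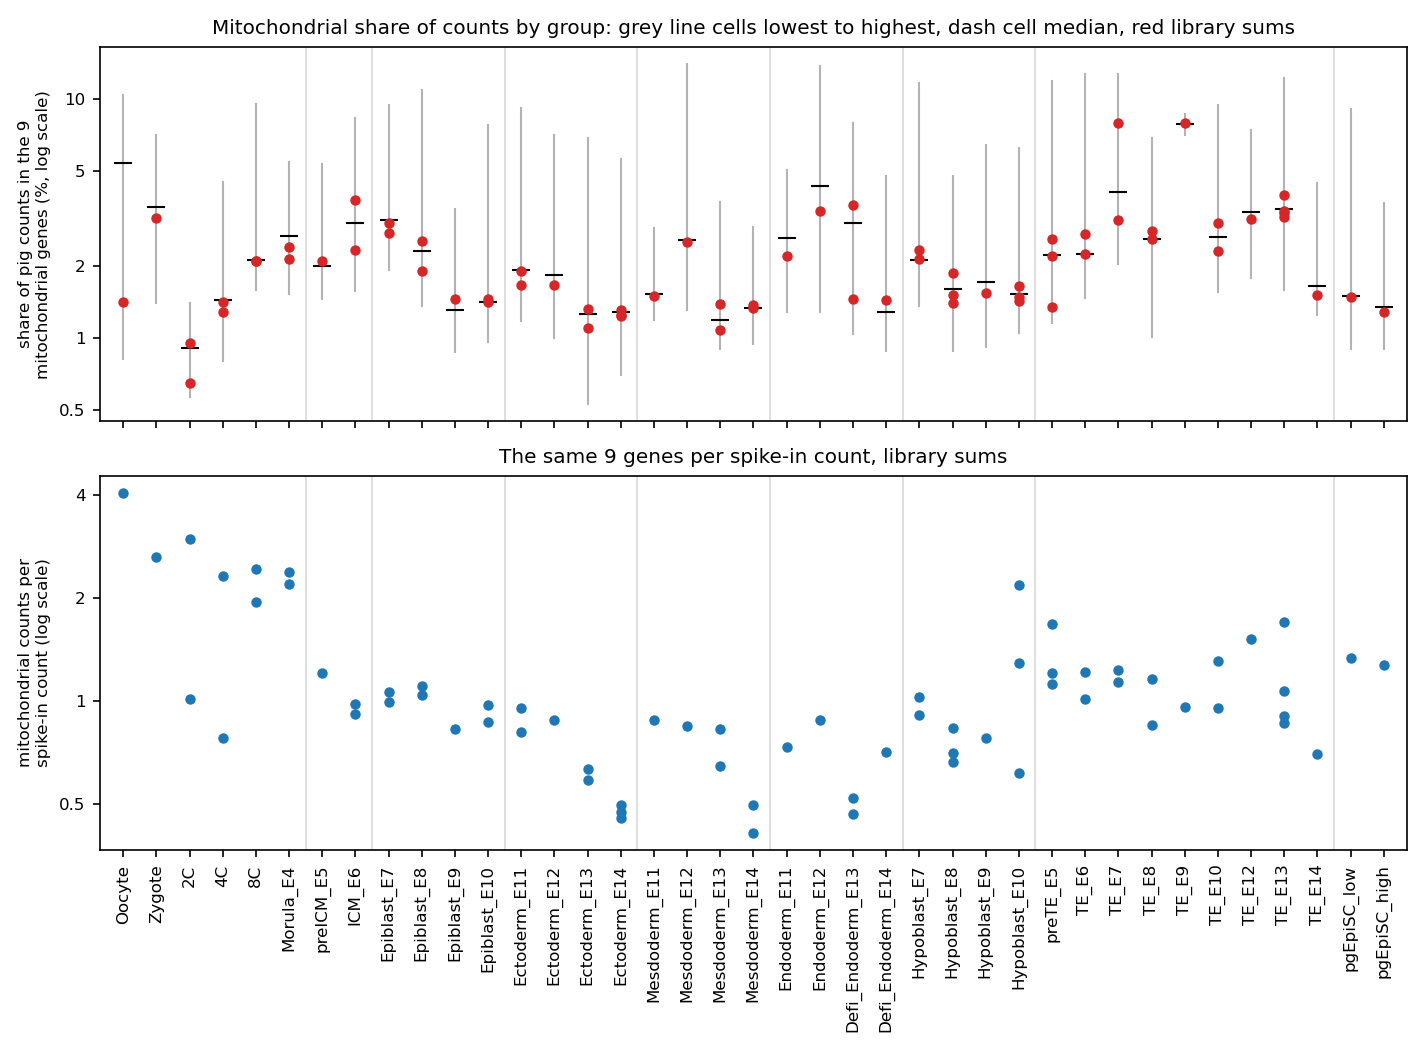
The upper panel plots the percent of pig counts in the 9 mitochondrial genes and the lower panel the same counts per ERCC spike-in count, for each group in order of development and lineage. In the upper panel a grey line spans the lowest to the highest cell, a dash is the median cell and red points are library sums, and in the lower panel points are library sums. The share is lowest in 2C (0.8546% pooled) and high in TE_E7 (3.933% pooled), while counts per spike-in are highest in the earliest groups and low in the mesoderm and ectoderm of E14.

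Counts per spike-in count gave another order. They were 4.068 in Oocyte and 2.633 in Zygote, 2.972 (P1) and 1.012 (P13) in 2C, 2.322 (P1) and 0.7807 (P13) in 4C, 2.441 (P19) and 1.951 (P20) in 8C, and 2.387 (P1) and 2.2 (P2) in Morula_E4. They were 0.9822 and 0.9161 in ICM_E6, 0.9762 and 0.8667 in Epiblast_E10, and between 0.4121 and 0.4969 in the ectoderm and mesoderm sums of E14. Within P1, which held cells from Oocyte to Morula_E4, the value per spike-in stayed between 2.322 and 4.068 while the share moved between 0.9533% and 3.2%. How much spike-in each cell received is not stated in the sources used here.

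The single cells of the earliest groups were not alike. The 4 Oocyte cells had shares of 0.8191%, 0.8642%, 9.921% and 10.43%. The 2 low ones had 1198303 and 1796832 counts and the 2 high ones 37636 and 156090. The spike-in load ran with them, at 2.02 and 0.92 ERCC counts per 1000 pig counts in the low-share cells and 50.72 and 33.1 in the high-share cells. The 6 Zygote cells had 1.41% to 7.072%. The 2C cells were tighter, at 0.7218% to 1.4% in P1 and 0.5698% and 0.7492% in P13.

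At 4C, TFAM was the member that stood out against 2C, and its rise differed in size between the 2 libraries, which each held cells of both stages. TFAM had 498.4 CPM in 4C cells of P1 (17 cells) and 23.44 CPM in 4C cells of P13 (6 cells), against 29.33 CPM (P1, 8 cells) and 8.027 CPM (P13, 2 cells) in 2C cells. TFAM was higher at 4C in both libraries, by a log2 ratio of CPM of 4.09 within P1 and 1.55 within P13, although the P13 sum at 4C lay below the P1 sum at 2C. The fitted log2 change of TFAM was 4.02 ± 0.71 (SE; edgeR quasi-likelihood test, adjusted p = 0.000173), 4.15 without P13 (adjusted p = 3.4e-05) and 1.66 without P1 (adjusted p = 1.0). Leaving out a library leaves 1 sum on each side, assumed to vary like the other groups. With the library as a block, a fit added after the data were seen, it was 3.36 (adjusted p = 3.6e-05). With spike-in scaling it was 2.99 (adjusted p = 0.212). Per 1000 ERCC counts TFAM reached 81.19 (P1) and 1.426 (P13) at 4C, against 9.142 (P1) and 1.254 (P13) at 2C.

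COX1, the catalytic subunit that reduces oxygen, was the only other member that passed the threshold at 4C. It had 3111 (P1) and 2716 CPM (P13) in 4C cells, against 1680 (P1) and 1415 CPM (P13) in 2C cells, so both 4C sums lay above both 2C sums. The same held for every other mitochondrial member except ND1. All 9 mitochondrial members were higher at 4C within each library, by log2 ratios of 0.20 to 0.89 in P1 and 0.85 to 1.38 in P13. The fitted log2 change of COX1 was 1.08 ± 0.32 (adjusted p = 0.0416), and the other 8 mitochondrial members had changes of 0.58 to 0.99 that missed the threshold. In this comparison 4.47% of all genes tested passed it, and 4.39% of all genes tested passed it and were higher at 4C. The COX1 change kept its size, 1.06 without P1 (adjusted p = 1.0), 0.96 without P13 (adjusted p = 0.267) and 1.07 with the library as a block (adjusted p = 0.282), but did not pass the threshold in any of these. Spike-in scaling, which lowered the log2 changes of the listed genes by a median of 1.16, turned the sign for all 9 mitochondrial members, with COX1 at -0.15 (adjusted p = 0.894).

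The nuclear partners gave a similar picture by library. Of 39 other genes of mitochondrial DNA maintenance and transcription 5 rose at 4C and none fell: TFB2M, the partner of TFAM at the promoter, by a log2 change of 5.13, the elongation factor TEFM by 4.36, the single-strand DNA-binding protein SSBP1 by 2.31, the RNA-binding protein LRPPRC by 1.90 and TBRG4 (FASTKD4) by 1.76. Of 21 nuclear subunits of complexes I, III, IV and ATP synthase 9 rose, led by UQCRC2 (2.68) of complex III, COX4I1 (2.16) of complex IV and NDUFV1 (2.02) of complex I. TFB2M had 97.82 CPM in P1 and 1.019 CPM in P13 at 4C, and TEFM had 129.4 and 3.057 CPM. Without P1 none of the 39 and none of the 21 passed the threshold, and without P13 5 and 10 did. With the library as a block 2 and 3 passed, and with spike-in scaling none. The 4C cells of P13 had TFB2M and TEFM at a few CPM at most, unlike those of P1. The files cannot settle whether these 6 cells are at the stage of their label, and they enter every 4C value above and in the comparison of 8C with 4C. Those of them with 79014, 38500 and 31784 counts had 68.61, 169.2 and 115.8 ERCC counts per 1000 pig counts. The rest had 469095 to 831613 counts and 6.57 to 13.96 ERCC counts per 1000 pig counts.

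At 8C most of the mitochondrial members passed the threshold, where at 4C only COX1 had. In 8C cells 7 of the 9 mitochondrial members rose, in a comparison in which 11.2% of all genes changed, 4.06% rising and 7.11% falling. COX2 had 2249 (P19) and 2002 CPM (P20) in 8C cells, against 1075 (P1) and 1086 CPM (P13) in 4C cells, a log2 change of 1.55 ± 0.35 (adjusted p = 0.00168). ND4 had 2263 and 2366 CPM in 8C cells, against 1476 and 1243 CPM in 4C cells, a log2 change of 1.34 ± 0.34 (adjusted p = 0.0054). ATP6 had 3537 and 3665 CPM in 8C cells, against 2403 and 2061 CPM in 4C cells. For these genes the 2 sums of each group lay close together and the groups did not overlap. The TMM factors of the fit (edgeR's scaling to the bulk of genes) add 0.58 to each log2 change in this step: the plain log2 ratio of mean CPM was 0.98 for COX2, 0.77 for ND4 and 0.69 for ATP6, with a median of 0.64 over the 9 members, where the fitted median was 1.21. For 4C against 2C the plain median was 0.71 and the fitted median 0.82, so by plain ratios the rise at 8C was no larger than that at 4C. In the fit of 8C against 4C ATP6 rose by 1.27, ND5 by 1.21, COX1 by 1.16, CYTB by 1.12 and COX3 by 1.09, with adjusted p between 0.00621 and 0.0345. ND1 changed by 1.26 (adjusted p = 0.051) and ND2 by 0.99 (adjusted p = 0.129), both short of the threshold. Of the other mitochondrial genes ATP8 (1.65) and ND4L (1.57) rose, while ND3 and ND6 did not pass.

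TFAM did not rise with them. It had 30.14 (P19) and 76.93 CPM (P20) in 8C cells, against 498.4 (P1) and 23.44 CPM (P13) in 4C cells, a log2 change of -1.76 ± 0.63 (adjusted p = 0.0624). Both 8C sums lay between the 4C sums, and the direction was set by which 4C library was kept: -2.53 without P13 (adjusted p = 0.000177) and 2.01 without P1 (adjusted p = 0.047). With spike-in scaling it was -2.96 (adjusted p = 0.0271). Of the 39 other maintenance genes 5 rose and 9 fell at 8C. PPARGC1B, a coactivator of mitochondrial gene programmes, fell by 6.66 on the log2 scale, and TEFM (-3.81), TFB2M (-3.68), PPRC1 (-3.12), TBRG4 (-3.12) and POLRMT (-3.08) fell as well. Of the 21 nuclear subunits 1 rose (NDUFV2, 1.95) and 8 fell, among them UQCRC2 (-3.32), NDUFV1 (-2.77), COX4I1 (-2.36), CYC1 (-2.30) and COX7A2 (-1.84). Without P1 the falls were fewer, with 2 maintenance genes higher and none lower, and 2 subunits higher and 2 lower.

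No library held both 8C and 4C cells, so stage and library cannot be told apart in this step. The 7 mitochondrial calls became 9 without P19, 5 without P1, 4 without P13 and 1 (COX2, 1.40, adjusted p = 0.0367) without P20. The median fitted change of the 9 members was 1.54, 1.43, 1.15 and 0.95 in these fits. Spike-in scaling lowered the log2 changes by a median of 0.71, left all 9 mitochondrial changes positive (0.28 to 0.89) and left none past the threshold.

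At Morula_E4 the nuclear subunits of the respiratory chain were higher than at 8C, while none of their mitochondrial partners among the members passed the threshold. In Morula cells 20 of 21 nuclear subunits rose, with a median log2 change of 3.20, while none of the 9 mitochondrial members passed the threshold, with a median of -0.26 (0 at an unadjusted p under 0.05, and 3 by DESeq2, all lower). The plain log2 ratio of mean CPM had a median of 0.07, and without P19 5 of the 9 were called lower, with a fitted median of -0.94. Over all genes tested the median was 0.00, 29.8% changed, 16.3% rising and 13.5% falling. COX4I1, which binds the mitochondrially encoded core of complex IV, had 968.7 (P1) and 1098 CPM (P2) in Morula cells, against 69.44 (P19) and 29.9 CPM (P20) in 8C cells. COX1, that core, had 4321 (P1) and 3224 CPM (P2) in Morula cells, against 4280 (P19) and 4424 CPM (P20) in 8C cells, a log2 change of -0.53 ± 0.32 (adjusted p = 0.207). The COX4I1 groups were far apart and the COX1 groups overlapped. UQCRC2, the core protein of complex III, had 281.7 (P1) and 310.6 CPM (P2) in Morula cells, against 8.049 (P19) and 2.123 CPM (P20) in 8C cells. CYTB, the mitochondrial subunit of the same complex, had 2313 (P1) and 1982 CPM (P2) in Morula cells, against 1982 (P19) and 1953 CPM (P20) in 8C cells. Of the 9 fitted mitochondrial changes 3 were positive, ND1 (0.684), ND4 (0.18) and ND2 (0.135), and the rest were negative. ND1 had 1914 (P1) and 2079 CPM (P2) in Morula cells, against 959.2 (P19) and 1025 CPM (P20) in 8C cells. For ND4 and ND2 too both Morula sums lay above both 8C sums.

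The largest subunit changes were NDUFV1 (5.71 ± 0.53), UQCRC2 (5.70 ± 0.59), NDUFA9 (4.98 ± 0.49), CYC1 (4.87 ± 0.39), UQCRC1 (4.40 ± 0.40) and COX4I1 (4.16 ± 0.41), all with adjusted p of 2.44e-10 or less. The 21 subunits together took 0.9099% (P1) and 1.12% (P2) of pig counts in Morula cells, against 0.17% (P19) and 0.1392% (P20) in 8C cells. They had taken 0.3522% (P1) and 0.2071% (P13) in 4C cells and 0.147% (P1) and 0.1587% (P13) in 2C cells. There were 2.65 (P1) and 1.918 (P2) mitochondrial member counts per nuclear subunit count in Morula cells, against 12.36 (P19) and 15.19 (P20) in 8C cells. That ratio was 6.487 and 4.082 in 2C and 4.047 and 6.198 in 4C, so 8C held the highest values of cleavage. It was 1.428 in preICM_E5 and 1.634 (P15) and 1.543 (P16) in Epiblast_E10.

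No library held both Morula_E4 and 8C cells, so stage and library cannot be told apart in this step either. Within P1, which held Morula_E4 and 4C cells, the subunits took 0.9099% of counts in Morula cells and 0.3522% in 4C cells. Per ERCC count the subunits had 0.9011 (P1) and 1.147 (P2) counts in Morula cells, against 0.1975 (P19) and 0.1284 (P20) in 8C cells. With spike-in scaling 20 of 21 again passed, with a median of 3.36, and leaving out P1, P2, P19 or P20 left 17 (without P19) to 20. DESeq2, whose scaling lowered the listed log2 changes by a median of 0.51, called COX1 (-1.04), COX2 (-1.01) and COX3 (-0.89) lower in Morula cells, and spike-in scaling put 5 of the 9 mitochondrial members above 0.

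**Figure D2:**
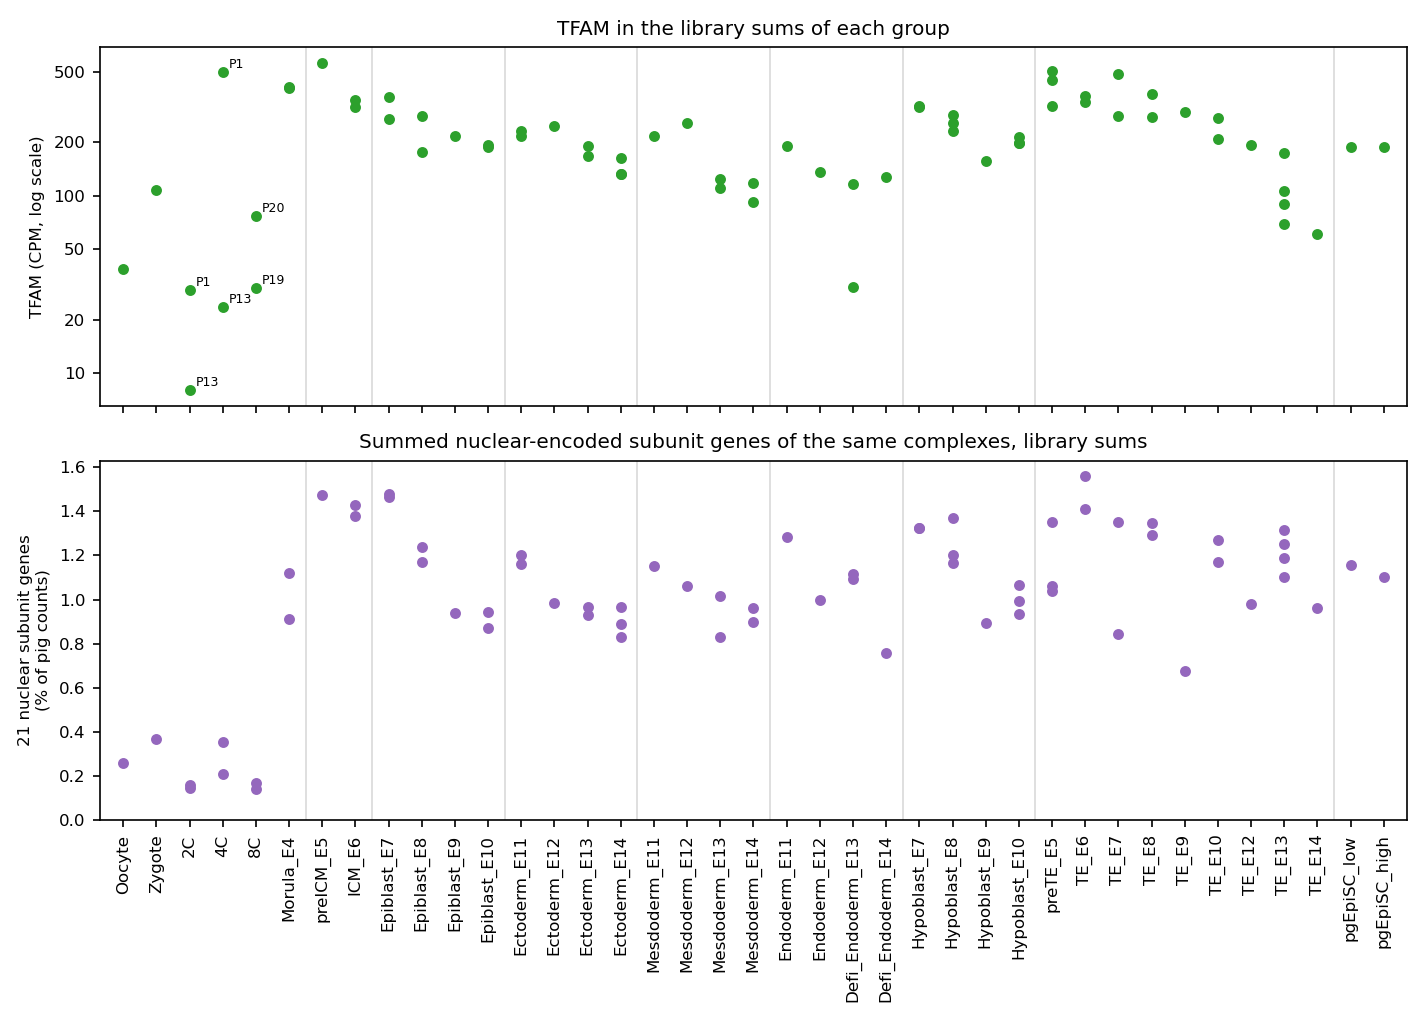
The upper panel plots TFAM in CPM on a logarithmic axis and the lower panel the 21 nuclear subunits of the respiratory complexes as a summed percent of pig counts, by group in order of development, with points for the library sums. TFAM is high in a single 4C library (498.4 CPM in P1 against 23.44 CPM in P13), low at 8C and about 400 CPM in both Morula_E4 sums, and the subunits reach 0.9099% and 1.12% in Morula_E4 against 0.17% and 0.1392% in 8C.

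TFAM rose with the nuclear set. It had 405.6 (P1) and 408.3 CPM (P2) in Morula cells, against 30.14 (P19) and 76.93 CPM (P20) in 8C cells, a log2 change of 2.51 ± 0.65 (adjusted p = 0.00256). The groups did not overlap. With spike-in scaling the change was 2.95 (adjusted p = 0.0115), and without P19 it was 1.42 (adjusted p = 0.166). Of the 39 other maintenance genes 19 rose and 4 fell. PPARGC1B changed by 8.95, TBRG4 by 4.99, POLRMT, the mitochondrial RNA polymerase, by 4.32, TFB2M by 4.13, TEFM by 3.97 and FASTKD5, which processes mitochondrial RNA, by 3.67. The 4 that fell, named after their values were seen, were POLG2, the accessory subunit of the mitochondrial DNA polymerase, by 3.09, the primase PRIMPOL by 2.43, the RNA-degrading PNPT1 by 2.38 and the nuclease DNA2 by 1.87. PNPT1, PRIMPOL and POLG2 had risen at 8C against 4C (2.65, 1.72 and 2.84).

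After Morula_E4 the TFAM sums were high in preICM_E5 and the early trophectoderm and lower at later days. It had 556 CPM in preICM_E5, 448 (P13), 317.7 (P14) and 504 CPM (P2) in preTE_E5, and 315.7 and 344.2 CPM in ICM_E6. The epiblast sums were 360.2 and 268.9 CPM at E7, 281.7 and 175.4 at E8, 215.8 at E9 and 192.2 and 187.8 at E10. Ectoderm sums were 216.9 and 231.4 CPM at E11 and 132.2, 132.9 and 163.1 at E14. Trophectoderm sums were 484 and 281.2 CPM at E7, 208.2 and 275.3 at E10, 68.8 to 173.6 at E13 and 60.94 at E14. TFAM passed the threshold in none of the 12 later steps that were tested. In the order of 23 groups with at least 2 sums the TFAM ranges of neighbours overlapped in 17 of 22 pairs. That order too puts the closest groups side by side, so the overlap is no test of a difference.

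No mitochondrial member passed the threshold in the 12 later steps from preTE_E5 onward either, where 26 of 108 gene and step pairs had an unadjusted p under 0.05 and DESeq2 called 8. The share of all genes that changed was also small in these steps, except in TE_E6 against preTE_E5, where it was above the 4.47% of 4C against 2C. Along the trophectoderm it was 0.0518% in preTE_E5 against Morula_E4, 4.84% in TE_E6 against preTE_E5, 0.755% in TE_E7 against TE_E6, 0.0302% in TE_E8 against TE_E7 and 0.134% in TE_E10 against TE_E8. It was 1.84% in Epiblast_E7 and 1.01% in Hypoblast_E7 against ICM_E6, 0.604% in Epiblast_E8 against Epiblast_E7, 0.237% in Hypoblast_E8 against Hypoblast_E7, 0.168% in Ectoderm_E11 against Epiblast_E10, 0.267% in Ectoderm_E14 against Ectoderm_E13 and 0% in Mesdoderm_E14 against Mesdoderm_E13. The median log2 change of the mitochondrial members was 0.86 in TE_E7 against TE_E6, -0.72 in TE_E8 against TE_E7, 0.64 in Ectoderm_E11 against Epiblast_E10 and -0.58 in Epiblast_E8 against Epiblast_E7. Of the other mitochondrial genes ND3 rose in TE_E7 against TE_E6 (1.52, adjusted p = 0.0239). Among the nuclear lists only TE_E6 against preTE_E5 gave calls, with 2 of 39 maintenance genes (HSD17B10, 1.65, a part of the mitochondrial RNase P, and the protease LONP1, 1.51) and 5 of 21 subunits higher where 3.08% of all genes rose, led by ATP5MC1 (1.45) and NDUFV1 (1.40). The 5 subunit calls became 2 without P13, 1 without P15 and 0 without P14, where the median subunit change was 0.64, 0.76 and 0.82 (0.74 with all libraries), and none held with spike-in scaling (median -0.18). The maintenance calls were lost without P15.

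**Figure D3:**
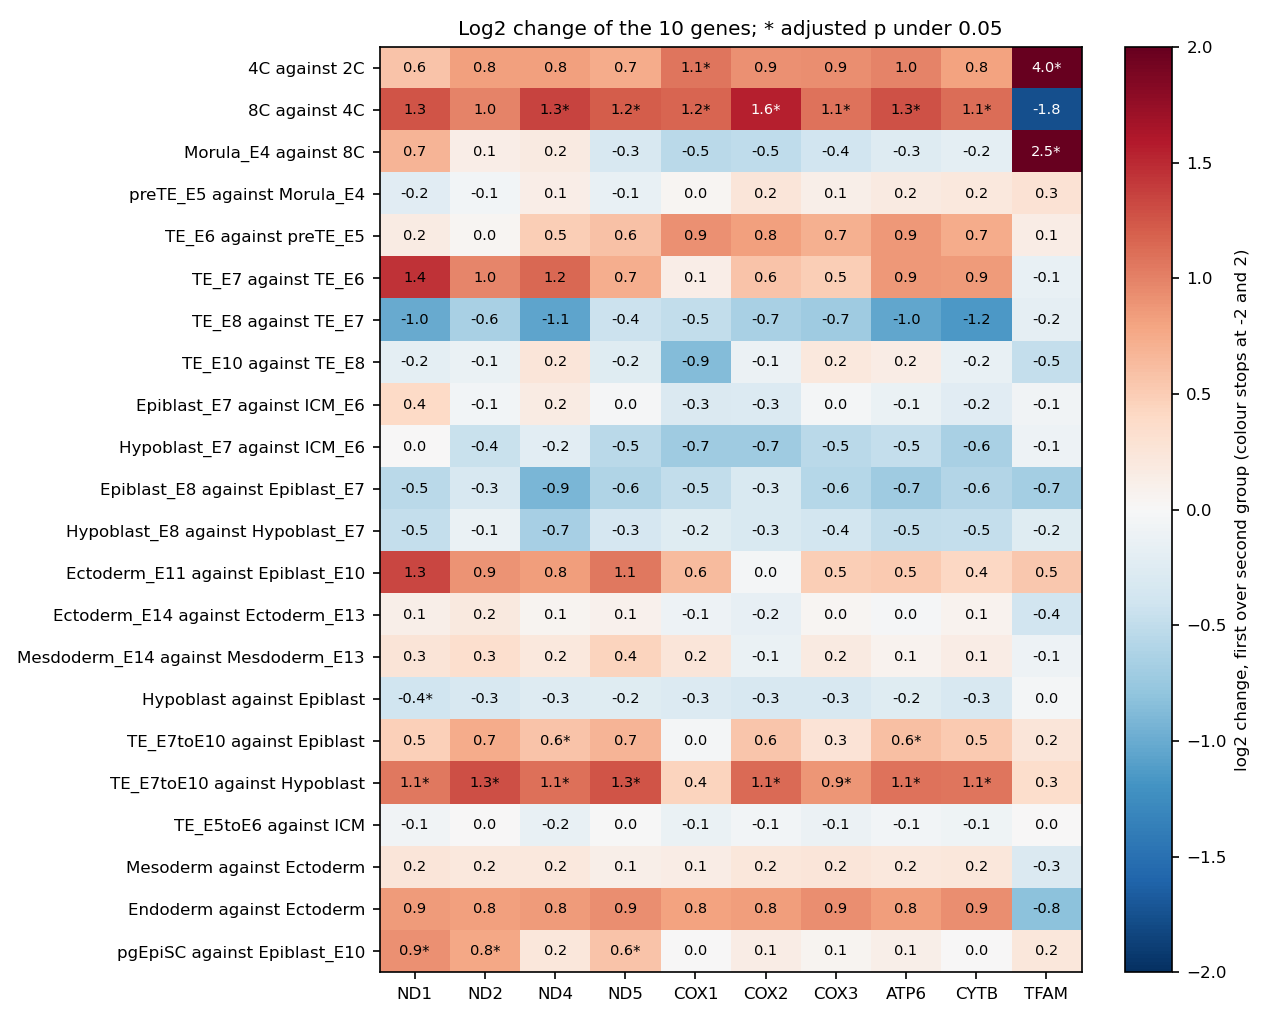
Heat map of the log2 change, first group over second, of the 10 genes in the 22 comparisons that were tested, with marked cells for changes past an adjusted p of 0.05. Most marks of mitochondrial genes are in 8C against 4C and in trophectoderm against hypoblast. TFAM is marked in 4C against 2C and in Morula_E4 against 8C. The other marks are COX1 in 4C against 2C, ND1 in hypoblast against epiblast, and ND4 and ATP6 in trophectoderm against epiblast. In pgEpiSC against Epiblast_E10 they are ND1, ND2 and ND5.

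Trophectoderm had the higher mitochondrial levels when it was set against hypoblast of the same libraries. Over 6 libraries with both cell types of E7 to E10, 8 of the 9 mitochondrial members rose in trophectoderm, by log2 changes of 0.88 to 1.29, and so did ND3, ND4L, ND6 and ATP8. In this comparison 21.1% of all genes changed and 9.39% rose, with a median over all genes of -0.14. The share of the 9 genes in P3, P4, P5, P6, P8 and P9 was 2.808%, 2.592%, 2.15%, 3.027%, 3.12% and 7.964% in trophectoderm, against 1.884%, 1.407%, 1.476%, 1.488%, 2.151% and 2.335% in hypoblast. Trophectoderm was higher in 6 of 6 libraries, and P9 stood far above the others.

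ND5 had 1602, 2238, 1365, 2083, 1991 and 3911 CPM in trophectoderm of these libraries, against 1007, 741.2, 794.3, 856.1, 1074 and 1213 CPM in hypoblast. The ND5 groups did not overlap, and its log2 change was 1.26 ± 0.20 (adjusted p = 0.000394). ND2 changed by 1.29 ± 0.24 (adjusted p = 0.00155), COX2 by 1.13 ± 0.19 (adjusted p = 0.000826), ND4 by 1.10 ± 0.20, ATP6 by 1.08 ± 0.19, CYTB by 1.07 ± 0.20, ND1 by 1.05 ± 0.20 and COX3 by 0.88 ± 0.18. COX1 was the exception. It had 4581, 3846, 1875, 2805, 3967 and 9424 CPM in trophectoderm, against 3488, 2548, 2591, 2857, 3428 and 3790 CPM in hypoblast, higher in 4 of 6 libraries, with a log2 change of 0.44 ± 0.20 (adjusted p = 0.133). TFAM averaged 320.1 ± 93.4 CPM in trophectoderm and 266.7 ± 46.6 CPM in hypoblast (SD, n = 6 libraries each), a log2 change of 0.35 (adjusted p = 0.233). None of 38 other maintenance genes and none of 21 nuclear subunits passed the threshold, with a subunit median of 0.12. At an unadjusted p under 0.05 there were 3 and 1, and DESeq2 called 1 and 0.

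The mean share was 3.61 ± 2.16% in trophectoderm and 1.79 ± 0.393% in hypoblast (SD, n = 6 libraries each). The difference of 1.82 percentage points had p = 0.03125 in an exact two-sided sign-flip permutation test, the smallest that 6 libraries allow, and 0.1875 after adjustment over 6 pairs of lineages. Without P9 the difference was 1.06 points. In P9 the trophectoderm sum came from 5 cells of TE_E7 with shares of 5.221%, 6.53%, 10.03%, 11.78% and 12.79%. Removing P9 left 9 members past the threshold, including TFAM (0.44, adjusted p = 0.0314) and not COX1, and cells with at least 6000 detected genes also gave 9.

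Spike-in load was higher in trophectoderm in all 6 libraries, and depth was lower there in P4, P6, P8 and P9 but not in P3 and P5. Median counts per cell were 302500, 174500, 226700, 119100, 290200 and 75640 in trophectoderm of P3, P4, P5, P6, P8 and P9, against 247900, 287700, 225000, 465400, 344300 and 248600 in hypoblast. ERCC counts per 1000 pig counts were 24.23, 30.45, 19.94, 31.69, 25.25 and 69.96 in trophectoderm, against 22.52, 20, 16.77, 6.803, 23.52 and 22.75 in hypoblast. The mitochondrial counts per ERCC count were 1.159, 0.851, 1.078, 0.9551, 1.236 and 1.138 in trophectoderm, against 0.8365, 0.7035, 0.8803, 2.187, 0.9143 and 1.026 in hypoblast. They were higher in trophectoderm in 5 of 6 libraries, and P6 went the other way. The means were 1.07 in trophectoderm and 1.091 in hypoblast (exact sign-flip p = 1.0). With spike-in scaling, which lowered the listed log2 changes by a median of 0.91, none of the 9 mitochondrial members passed, 7 of 9 stayed positive and COX3 (-0.03) and COX1 (-0.45) were below 0. The part of depth and spike-in load in the result was not tested.

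**Figure D4:**
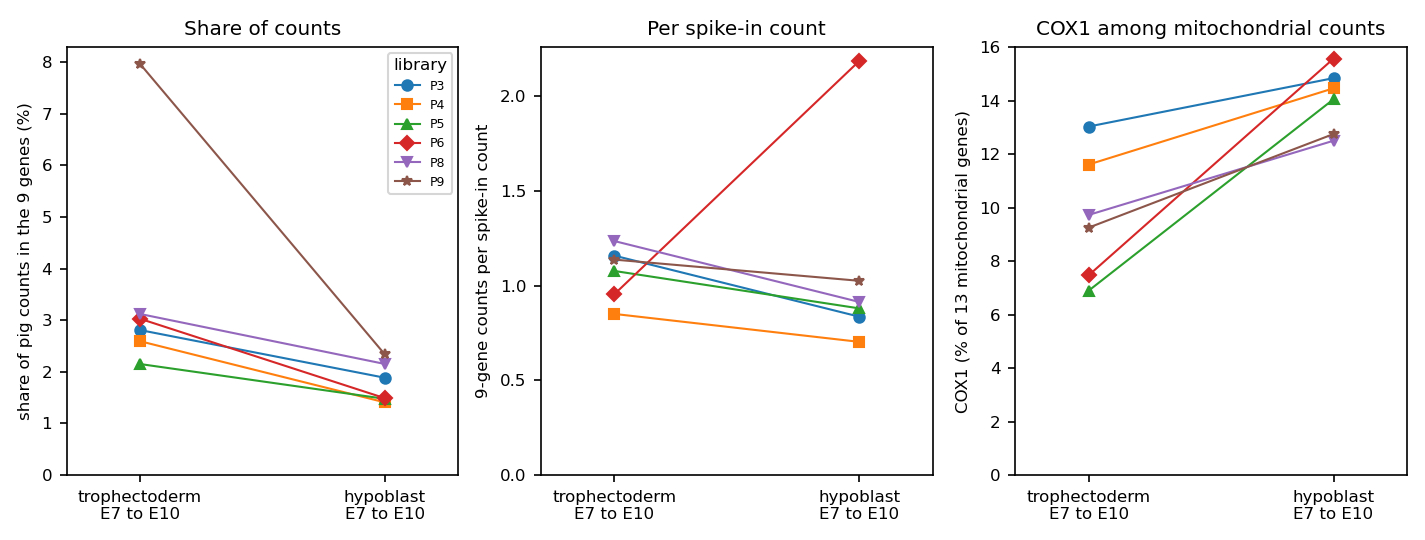
For each of 6 libraries, trophectoderm and hypoblast of E7 to E10 are joined by a line, in panels for the mitochondrial share in percent of pig counts, for mitochondrial counts per ERCC count and for COX1 as a percent of the counts of the 13 mitochondrial protein genes. The share is higher in trophectoderm in all 6 libraries, the counts per spike-in in 5, and the COX1 percentage is lower in all 6.

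The make-up of the mitochondrial counts also differed, independently of any scaling to nuclear or spike-in counts. COX1 took 13.03%, 11.61%, 6.894%, 7.469%, 9.725% and 9.25% of the counts of the 13 mitochondrial genes in trophectoderm of P3, P4, P5, P6, P8 and P9, against 14.84%, 14.46%, 14.05%, 15.57%, 12.5% and 12.75% in hypoblast. It was lower in trophectoderm in 6 of 6 libraries, by a mean of 4.36 points (9.663 ± 2.36% and 14.03 ± 1.20%, SD, n = 6 libraries each). The exact sign-flip p was 0.03125, the smallest possible, and 0.1875 after adjustment over 6 lineage pairs, and this measure was chosen after the values were seen. Leaving out a library gave differences of -4.88 to -3.62 points. The P5 and P6 sums, with the TE_E10 cells, were lowest, and over the groups of at least 5 cells COX1 ran from 7.097% in TE_E10 to 17.56% in 4C. In P5 the 3 TE_E8 cells were low as well, at 7.565%, against 13.03% (P3) and 11.61% (P4) in the TE_E8 cells of other libraries. The part of library P5 was not tested. Trophectoderm of later days did not keep the low value, with 15.31% in TE_E12. Against epiblast of 4 shared libraries the COX1 percentage was 9.369% in trophectoderm and 13.29% in epiblast, lower in 4 of 4 (exact p = 0.125, the smallest possible). Of these, P5 had the largest difference, -6.561 points, against -3.582 to -2.568 points in P4, P8 and P9. Days differed in P5, where trophectoderm held TE_E8 and TE_E10 cells and epiblast only Epiblast_E8 cells. The summed share of ND1, ND2 and ND3 differed less, at 15.45% in trophectoderm and 14.72% in hypoblast, higher in 4 of 6 libraries.

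Set against epiblast, trophectoderm of E7 to E10 had ND4 (0.57 ± 0.16, adjusted p = 0.0238) and ATP6 (0.60 ± 0.16, adjusted p = 0.0224) higher, and ND4L among the others (0.70), where 14.9% of all genes changed and 7.47% rose. COX1 changed by -0.04 (adjusted p = 0.907). The mean share was 3.956% in trophectoderm and 2.568% in epiblast, higher in 4 of 4 libraries by 1.39 points, and by 0.21 points without P9 (exact p = 0.125, the smallest possible with 4 libraries). The 2 calls fell to 0 without P8, with DESeq2 and without the library block, and became 4 without P9 or without P4. Without P9 COX1 was among them and lower in trophectoderm, at -0.36 (adjusted p = 0.0252).

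In hypoblast against epiblast of 6 shared libraries only ND1 of the 9 mitochondrial members passed the threshold, lower in hypoblast. It had 870.8, 995.1, 1385, 1728, 537.5 and 1023 CPM in hypoblast of P4, P5, P8, P9, P16 and P17, against 1736, 1436, 1807, 2140, 645.4 and 935.4 CPM in epiblast. It was lower in 5 of 6 libraries, with a log2 change of -0.39 ± 0.12 (adjusted p = 0.0332). In P5 the hypoblast cells were of E8 and E10 and the epiblast cells of E8 only. ND3 fell by 0.37 on the log2 scale, and the other 8 mitochondrial members had changes of -0.33 to -0.25 that did not pass. Of all genes 23% changed, 12.3% rising and 10.7% falling, so 1 call among 9 members is close to the share of all genes that fell. At an unadjusted p under 0.05 there were 8 of the 9. The ND1 call rests on several libraries: without P4, P5, P8 or P9 no member passed, without P17 3 did and without P16 9 did. It was also lost without the library block. The mean share was 1.76% in hypoblast and 2.197% in epiblast, and higher in hypoblast in 2 of 6 libraries (exact p = 0.125, adjusted 0.1875). Per ERCC count hypoblast was lower in 6 of 6 libraries, at 0.8203 and 0.9843 in epiblast (exact p = 0.03125, the smallest possible, adjusted 0.1875). Of 38 other maintenance genes 3 rose in hypoblast (TEFM 1.07, the RNA-binding FASTK 0.69 and MTERF3 0.33) and 2 fell (the nuclease MGME1 by 0.68 and PRORP, the catalytic part of mitochondrial RNase P, by 0.35), and of 21 subunits COX4I1 fell by 0.42. TFAM had a change of -0.03 (adjusted p = 0.884).

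In endoderm against ectoderm of E11 to E14 the mitochondrial members and TFAM lay on opposite sides, without passing the threshold. The share in P10, P11, P18 and P19 was 3.407%, 1.448%, 3.624% and 1.462% in endoderm, against 1.678%, 1.307%, 1.102% and 1.329% in ectoderm, higher in 4 of 4 libraries (exact p = 0.125, the smallest possible, adjusted 0.1875). TFAM had 135, 127.6, 30.61 and 116 CPM in endoderm, against 245.8, 132.2, 191.3 and 167.3 CPM in ectoderm, lower in 4 of 4 (exact p = 0.125, adjusted 0.3124). The P10 and P18 endoderm sums, with the high shares, had 38.66 and 77.47 ERCC counts per 1000 pig counts, against 19 and 18.73 in ectoderm of the same libraries, and per ERCC count the means were 0.6459 in endoderm and 0.6443 in ectoderm. The part of the spike-in load in the share was not tested. The fit called no member, although all 10 had an unadjusted p under 0.05 and DESeq2 called 0 (median log2 change of the mitochondrial members 0.85, TFAM -0.82), where 1.31% of all genes changed, and called the 9 mitochondrial members once P11 was left out. Mesoderm against ectoderm (3.62% of all genes changed) and preTE and TE_E6 against ICM (0%, with 1559 genes at an unadjusted p under 0.05) gave no member either, with mean shares of 1.539% in mesoderm and 1.377% in ectoderm, and of 2.491% in trophectoderm and 2.744% in ICM cells.

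In pgEpiSC most mitochondrial messages of complex I were higher than in the epiblast of E10, and the other mitochondrial genes did not pass the threshold. ND1 had 1017 (low) and 994.1 CPM (high) in pgEpiSC, against 617.7 (P15) and 645.4 CPM (P16) in Epiblast_E10, a log2 change of 0.92 ± 0.12 (adjusted p = 0.00125). ND2 had 711.5 and 614.9 CPM in pgEpiSC, against 401.3 and 522.6 CPM in Epiblast_E10 (0.77 ± 0.18, adjusted p = 0.0244), and ND5 932.6 and 752 CPM in pgEpiSC, against 649.3 and 702.5 CPM in Epiblast_E10 (0.57 ± 0.16, adjusted p = 0.0486). For each of these genes both pgEpiSC sums lay above both epiblast sums. ND3 (0.85, adjusted p = 0.0056) and ND6 (0.55, adjusted p = 0.0489) rose as well, so 5 of the 7 complex I genes of the mitochondrial genome did. Of the remaining complex I genes ND4 changed by 0.22 (adjusted p = 0.246) and ND4L, which overlaps it, by 0.27. In this comparison 6.52% of all genes changed and 3.3% rose.

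Outside complex I no mitochondrial gene passed. CYTB had 1222 and 1155 CPM in pgEpiSC, against 1381 and 1433 CPM in Epiblast_E10, and ATP6 had 2665 and 2498 CPM in pgEpiSC, against 2895 and 2757 CPM in Epiblast_E10. Their fitted changes were 0.00 and 0.12. The fit scales by TMM factors, so in this comparison all fitted changes lie above the plain ratio of CPM. COX1 had 2542 and 1768 CPM in pgEpiSC, against 2586 and 2526 CPM in Epiblast_E10. ND1, ND2 and ND3 together took 16.06% (low) and 16.36% (high) of the 13 mitochondrial genes' counts in pgEpiSC, against 10.13% (P15) and 11.27% (P16) in Epiblast_E10. The epiblast sums of E7 to E9, from other libraries, had 13.4% to 15.69%. Hypoblast_E10 had 9.093% in P16, against 14.27% in P5 and 13.6% in P6. ICM_E6 and TE_E6 had 10.39% and 11.71% in P15 and 12.07% and 11.66% in P14. The part of libraries P15 and P16 in the complex I difference was not tested. TFAM was level, at 188.6 and 187.5 CPM in pgEpiSC, against 192.2 and 187.8 CPM in Epiblast_E10 (0.23 ± 0.23, adjusted p = 0.662). Of 21 nuclear subunits 9 rose, with a median over the list of 0.51, led by COX7A2 (1.06), COX7C (0.98), COX5B (0.93), ATP5PO (0.68), COX4I1 (0.67) and ATP5PB (0.64). Of 38 other maintenance genes 3 rose: SLIRP, the partner of LRPPRC in holding mitochondrial messenger RNA, by 1.08, MTERF3 by 0.92 and PRORP by 0.56.

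Of the 3 member calls 1 was left without P15, and spike-in scaling, which raised the listed log2 changes by a median of 0.32, gave 8, which include ND4, COX2, COX3, ATP6 and CYTB (0.32 to 0.54), so the split between complex I and the other genes was not kept there. Without pgEpiSC_low 2 passed, ND1 higher (0.84) and COX1 lower (-0.35, adjusted p = 0.00256) in pgEpiSC, and without pgEpiSC_high 5 passed, COX3 (0.27) and ND4 (0.28) among them. The nuclear subunit calls were 3 without P15 and 3 without pgEpiSC_low, with median changes of 0.43 and 0.46 (0.51 with all libraries). Each group here is 2 libraries, the pgEpiSC libraries are cultured cells, and culture, cell state and library cannot be told apart.

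Between the pgEpiSC libraries, with 1 library each and no test, the 9 genes together had a log2 ratio of -0.21 in high over low. COX1 had 1768 CPM (95% exact Poisson interval 1749 to 1786, counting error only) in pgEpiSC_high and 2542 CPM (2515 to 2569) in pgEpiSC_low, a log2 ratio of -0.52. COX3 had a log2 ratio of -0.47, ND6 -0.38 and ND5 -0.31, while COX2 was at 0.01 and TFAM at -0.01. TFAM had 187.5 CPM (181.6 to 193.6) in pgEpiSC_high and 188.6 CPM (181.3 to 196.1) in pgEpiSC_low. The COX1 difference is larger than the counting interval, but no replicate says how far 2 such libraries differ by themselves.

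Across 37 groups with at least 5 cells the mitochondrial members had like courses, on levels that share a denominator. Spearman's rho between pairs of them was 0.715 (COX1 and COX2) to 0.947 (ND2 with ND5 and ND4 with ATP6). Each correlated weakly with TFAM, from 0.133 for COX2 to 0.44 for ND1, and the summed share had a rho of 0.385 with TFAM. These are descriptions over groups that share libraries and depth. Of 8699 nuclear genes, those with the course most like TFAM were MRPS18C (0.889) and MRPS5 (0.826), proteins of the mitochondrial ribosome, ABRAXAS1 (0.883), the translation release factor ETF1 (0.866) and SCO1 (0.827), a copper chaperone of complex IV. Those most unlike it were GINM1 (-0.845), FDFT1 (-0.819), a squalene synthase, DELE1 (-0.817), TPGS2 (-0.784) and ARFGAP3 (-0.773). Of 9 maintenance genes looked up in the same way LRPPRC had 0.702, TEFM 0.661, SSBP1 0.643 and TFB2M 0.58, against 0.336 for POLRMT, 0.271 for the helicase TWNK, 0.243 for the transcription factor NRF1, -0.06 for the DNA polymerase POLG and -0.244 for TFB1M. The summed mitochondrial share was most like MTSS1 (0.711), PTGS2 (0.669), PTGES (0.663), PSAP (0.663) and GPD1L (0.661), of which PTGS2 and PTGES make prostaglandin E2, and most unlike OLFML3 (-0.77), TTLL1 (-0.752), LZTFL1 (-0.747), QNG1 (-0.745) and TMEM263 (-0.731).

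Between single cells the share ran from 0.5289% to 14.07%, with a median of 1.788%. In the 25 groups of at least 20 cells it went with few counts: Spearman's rho between share and total counts had a median over groups of -0.767 (-0.941 to -0.353), and between share and ERCC counts per pig count a median of 0.697. TFAM in CPM had a median rho of -0.253 with the share over the same groups. The 111 cells with a share of 5% or more came from 29 groups and had a median of 57450 counts, 5725 detected genes and 75.75 ERCC counts per 1000 pig counts, against 291860 counts, 9227.5 genes and 18.58 ERCC counts in the other 1536 cells.

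**Figure D5:**
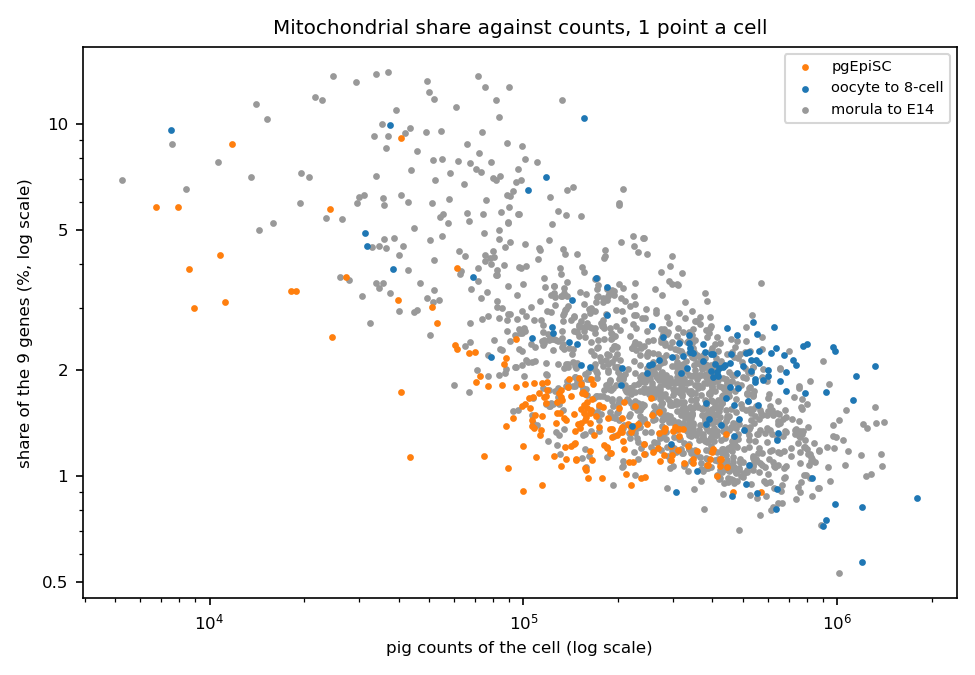
Each point is a cell, with its total pig counts on a logarithmic axis and its mitochondrial share in percent of pig counts. The share rises toward cells with few counts, and most cells of 5% or more lie at the shallow end (median 57450 counts, against 291860 in the rest).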

How the data were processed

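The authors deposited raw counts per gene and cell for 29214 pig genes and 92 spike-ins in 1647 cells, and tables of the mean and standard deviation over cells, for each of their 39 groups, of values on the scale log2(CPM/10 + 1). The mean and standard deviation columns of the embryonic groups were recorded as an other unit, since several deposited columns belong to the same samples. The submitters' processing notes name Sscrofa11.1 as build and featureCounts 1.6.4, STAR 2.7.1a and UMI-tools as tools, without role or order. The sources used here do not state whether a count is a read or a molecule.

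Cell names give the library and not the stage. The grouping was therefore solved by least squares from the group means the authors deposited: every cell received weight in exactly 1 group, and at least 93.03% of means and 99.86% of standard deviations were then within 0.001 of the deposited values. Gene symbols came from the reference table for 14800 identifiers. MTERF4, COX6C and ATP5F1B were matched to no identifier, and the ribosomal and transfer RNAs of the mitochondrial genome were not analysed here.

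Counts were summed per library and group, with at least 5 cells per sum (2 for Zygote, 2C and 4C, 1 for Oocyte). All 67 sums entered a single fit for 15 stage steps. Lineages were compared within libraries, with the library as a block, and pgEpiSC against Epiblast_E10 with the other epiblast days in the fit. Days of the 2 lineages differed within P5 in both comparisons with epiblast, and within P14 in trophectoderm against ICM. In P14 trophectoderm held cells of preTE_E5 and TE_E6 and ICM only cells of ICM_E6. Tests used edgeR 4.0.16 in R 4.3.3 (filterByExpr, TMM, common and trended dispersion, quasi-likelihood F-test), with Benjamini-Hochberg adjustment over all genes tested and a threshold of 0.05. Changes are log2, first group over second. Shares were compared within libraries by exact sign-flip permutation tests, two-sided. Intervals are exact at 95% and, like floors of 3 counts, cover counting error only; the pgEpiSC libraries were compared without a test, with a pseudocount of 1 CPM. The fits were tested on simulated data. Other steps used Python 3.11.15, numpy 2.4.6, pandas 2.3.3, scipy 1.17.1 and matplotlib 3.10.9.

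The genes, the lists of 41 maintenance genes and 23 nuclear subunits, the tests and the rules were chosen with earlier results of these data known. Named were the 10 genes and the other mitochondrial genes, up to 6 genes of each list past the threshold per comparison with the largest absolute change, and the 5 nuclear genes most and least like TFAM or the summed share by Spearman's rho over groups (at least 50 CPM in a group). Genes outside this rule are marked as chosen after their values were seen. Alternatives were DESeq2 1.42.0, edgeR with DESeq2's size factors, dropping the filter on low counts, scaling to nuclear or to spike-in counts, at least 10 cells per sum, at least 6000 detected genes per cell (which removed 114 cells), each library left out, and no library block. Leaving out libraries for the COX1 percentage, and a library block for 4C against 2C on the sums up to E6, were added after the data were seen.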

Additional observations from a re-analysis of the deposited data

Results flagged for a closer look

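Of 26 sets of within-group or within-library values checked for a sample far from the others, 3 held one, and chance flags about 1 in 20 sets. The difference in mitochondrial share between trophectoderm and hypoblast was 5.629 percentage points in P9, where the trophectoderm sum is 5 cells of TE_E7, and 0.6742 to 1.54 points in the other 5 libraries. The same P9 cells gave 4.93 points between trophectoderm and epiblast, with 0.0399 to 0.349 points in the other 3 libraries. The difference between mesoderm and ectoderm was 0.8583 points in P10 (Mesdoderm_E12 and Ectoderm_E12) and -0.1602 to 0.1292 points in the other 5 libraries.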

How the results depend on the processing

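Scaling decides more calls than the choice of test. With spike-in scaling the members past the threshold numbered 0 in 4C against 2C (2 as reported), 1 in 8C against 4C (7), 7 in hypoblast against epiblast (1), 0 in trophectoderm against epiblast (2), 0 in trophectoderm against hypoblast (8), 8 in pgEpiSC against Epiblast_E10 (3), 2 over all stage steps (10) and 7 over the lineage comparisons (11). Over the stage steps it left 26 maintenance genes (46), 25 nuclear subunits (43) and 0 of the other mitochondrial genes (3). COX1 at 4C turned to -0.15 and COX3 in trophectoderm against hypoblast to -0.032. DESeq2 gave 1 member in 4C against 2C, 4 in Morula_E4 against 8C (1), 5 in TE_E7 against TE_E6 (0), 3 in TE_E8 against TE_E7 (0), 0 in trophectoderm against epiblast, 22 over the stage steps and 7 other mitochondrial genes. Its size factors gave 1, 4 and 4 in the first 3 of these, 2 in hypoblast against epiblast and 17 over the stage steps, and nuclear scaling gave 1 in 4C against 2C and 3 in Morula_E4 against 8C. Without a filter on low counts there were 3 in TE_E6 against preTE_E5 (0), 2 in TE_E7 against TE_E6, 1 in TE_E8 against TE_E7, 1 in Ectoderm_E11 against Epiblast_E10 (0), 0 in both comparisons with epiblast, 21 over the stage steps, 7 over the lineages and 6 other mitochondrial genes. With at least 10 cells per sum there were 4 in 4C against 2C and 0 in hypoblast against epiblast. Cells with at least 6000 genes gave 5 in 4C against 2C, 4 in Morula_E4 against 8C, 4 in TE_E6 against preTE_E5, 4 in trophectoderm against epiblast and 22 over the stage steps. With a replicate block of libraries, added after the data were seen and possible only where the groups of a step share 2 libraries, there was 1 in 4C against 2C. Without the replicate block of libraries there were 0 in hypoblast against epiblast and 0 in trophectoderm against epiblast; the other 4 lineage comparisons kept their counts within 1.5 times.

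Leaving out a library gave 0 (P1) to 1 member in 4C against 2C, 2 (P20) to 9 (P19) in 8C against 4C, 1 to 5 (P19) in Morula_E4 against 8C, 0 to 1 (P2) in TE_E6 against preTE_E5, 0 to 5 (P8) in TE_E7 against TE_E6 and 0 to 4 (P8) in TE_E8 against TE_E7. It gave 0 to 9 (P16) in hypoblast against epiblast, 0 (P8) to 4 in trophectoderm against epiblast, 8 to 9 in trophectoderm against hypoblast, 0 to 4 (P2) in preTE and TE_E6 against ICM, 0 to 9 (P11) in endoderm against ectoderm and 1 (P15) to 5 (without pgEpiSC_high) in pgEpiSC. Over the stage steps the range was 6 (P20) to 24 (P8) members, 27 (P1) to 61 maintenance genes, 32 to 68 (P8) subunits and 1 (P20) to 7 (P8) other mitochondrial genes, and over the lineages 8 to 20 (P11) members. The highest group share was 4.6 times the lowest, 6.42 times by the mean of cells, 4.76 by their median, 4.74 with all 13 genes, 5.72 per spike-in count and 3.87 in cells with at least 6000 genes. The share difference of preTE and TE_E6 against ICM, -0.253 points, was 0.0583 by the median cell and -0.632 to 0.146 (without P15) with a library left out. The log2 ratio of pgEpiSC_high over pgEpiSC_low, -0.211, was -0.461 by mean CPM over cells. All mitochondrial features could be replaced only by the 13 named genes. The causes were not tested. Most stage steps rest on 2 sums a group, which limits their precision, and the part of depth was not tested.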

Other observations

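The make-up of the mitochondrial counts moved between groups in other genes besides COX1, and these values are given as descriptions without a test. As a percent of the counts of the 13 mitochondrial protein genes over the 37 groups of at least 5 cells, CYTB ran from 6.439% in pgEpiSC_low to 10.81% in Zygote, ND3 from 3.908% in Mesdoderm_E13 to 9.108% in Zygote, and ND4L from 3.159% in Zygote to 8.257% in Hypoblast_E9. The 2C group had the highest percentages of ND2 (5.116%) and ND5 (6.831%), and both were lowest in Epiblast_E10 (2.583% and 3.826%). ND4 was lowest in 4C (8.272%) and highest in TE_E10 (14.18%), the group where ATP6 was also highest (17.54%) and COX1 lowest (7.097%). COX2 ran from 5.355% in Ectoderm_E11 to 10.86% in Epiblast_E9. ATP6 varied least between groups, with a coefficient of variation of 8.671%, and ND3 most, with 19.93%. The Zygote values rest on 6 cells of 1 library.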
